A study of Mus musculus with 37 samples.

Results

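Glucose breakdown by glycolysis and the adaptation to low oxygen were followed in murine jejunal organoids through 36 listed genes, of which 35 had a row in the count tables (Aldoa was not analysed here). A listed gene counted as a member of the set in an experiment when it had at least 20 unique molecular identifiers (UMIs) summed over that experiment's table. This held for 35 genes in whole organoids, 33 in sorted cells after 72 h (not Pgam2 and Adm) and 34 in sorted cells of the irradiation experiment (not Pgam2), out of 31533 gene symbols in the 3 tables and 16336 that reached the same minimum in at least 1 of them. After a filter on low counts 35, 24 and 28 of the listed genes could be tested in these experiments.

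Glycolysis converts glucose to pyruvate in the cytosol, and lactate dehydrogenase and a lactate exporter let it run without oxygen. When oxygen falls, the hydroxylases that mark hypoxia-inducible factor (HIF) for destruction slow down, and HIF raises the transcription of glucose transporters, glycolytic enzymes and genes of the hypoxia response by binding a short DNA element with the core ACGTG or a variant, GCGTG. Proliferating crypt cells are known to use glycolysis, while Paneth cells beside them are known to release lactate. VIP, the vasoactive intestinal peptide, is a transmitter of the enteric nervous system that acts on epithelial cells mainly through a receptor coupled to cyclic AMP.

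Organoids were grown from jejunal crypts of female and male mice aged 6 to 12 weeks, in medium with EGF, Noggin and R-spondin 1 that all groups shared. Whole organoids from C57Bl/6 mice received 100 nM VIP for 72 h (4 mice) or no VIP (3 mice). Lgr5-EGFP+ cells, stem and progenitor cells sorted by the EGFP that the Lgr5 locus drives in Lgr5-EGFP-IRES-CreERT2 mice, came from organoids with or without 100 nM VIP for 72 h (4 mice in each group). In the third experiment organoids from 4 further mice were irradiated with 6 Gy of X-rays or not, each with and without VIP at 100 nM, for 48 h in the irradiated cultures, and Lgr5-EGFP+ cells were sorted. For the non-irradiated VIP-treated cultures the labels give no duration. Each number below is the mouse a culture came from, numbered anew in every experiment, and the cultures compared come from the same mouse. Libraries counted only the 3′ ends of polyadenylated RNA, and levels are given as CPM, the UMIs of a gene scaled to a total of 1000000 UMIs in the culture. The cultures held 3722716 to 6330404 UMIs in whole organoids, 575242 to 1104126 in sorted cells after 72 h and 1075715 to 1876729 in the irradiation experiment. In bulk RNA, fewer cells of a type cannot be told apart from less RNA in each of them.

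The sorted cells were epithelial, with Epcam at 796 to 1316 CPM and fibroblast markers at 0 to 2.56 in sum. Lgr5 itself was at 12.2 to 56.2 CPM in the sorted cells and at 42.4 to 116 in whole organoids, so the sort did not stand out by this transcript, although the experiments were sequenced apart. Olfm4, another stem cell marker, was at 1653 to 5846 in the sorted cells and 1156 to 3495 in whole organoids. Paneth markers were present after the sort too, at 3879 to 27162 in sum.

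One library stood apart before any test. VIP-treated whole organoids of mouse 3 were sequenced as 2 technical libraries, and the library labelled as the second disagreed with the first by a chi-square of 21.7 per degree of freedom across genes, against 1.15 to 3.18 in the 5 other such pairs. The genes of the set differed between both libraries by a median of 1.29 on the log2 scale, against 0.09 to 0.20 in those pairs. Bnip3, a mitophagy receptor induced by HIF, had 71 UMIs (18.3 CPM) in the first and 405 (166 CPM) in the second. S100a6, which was at 701 to 1635 CPM in all other VIP-treated libraries and 121 to 209 in the controls, was at 150.0 in the second library, and Clca1, a goblet cell product, was at 52.3 against 173 to 325 and 40.2 to 60.9. That library therefore goes against its label for these genes, which were chosen after their values were seen, and the calls and fitted changes in whole organoids are given with and without it.

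**Figure D1:**
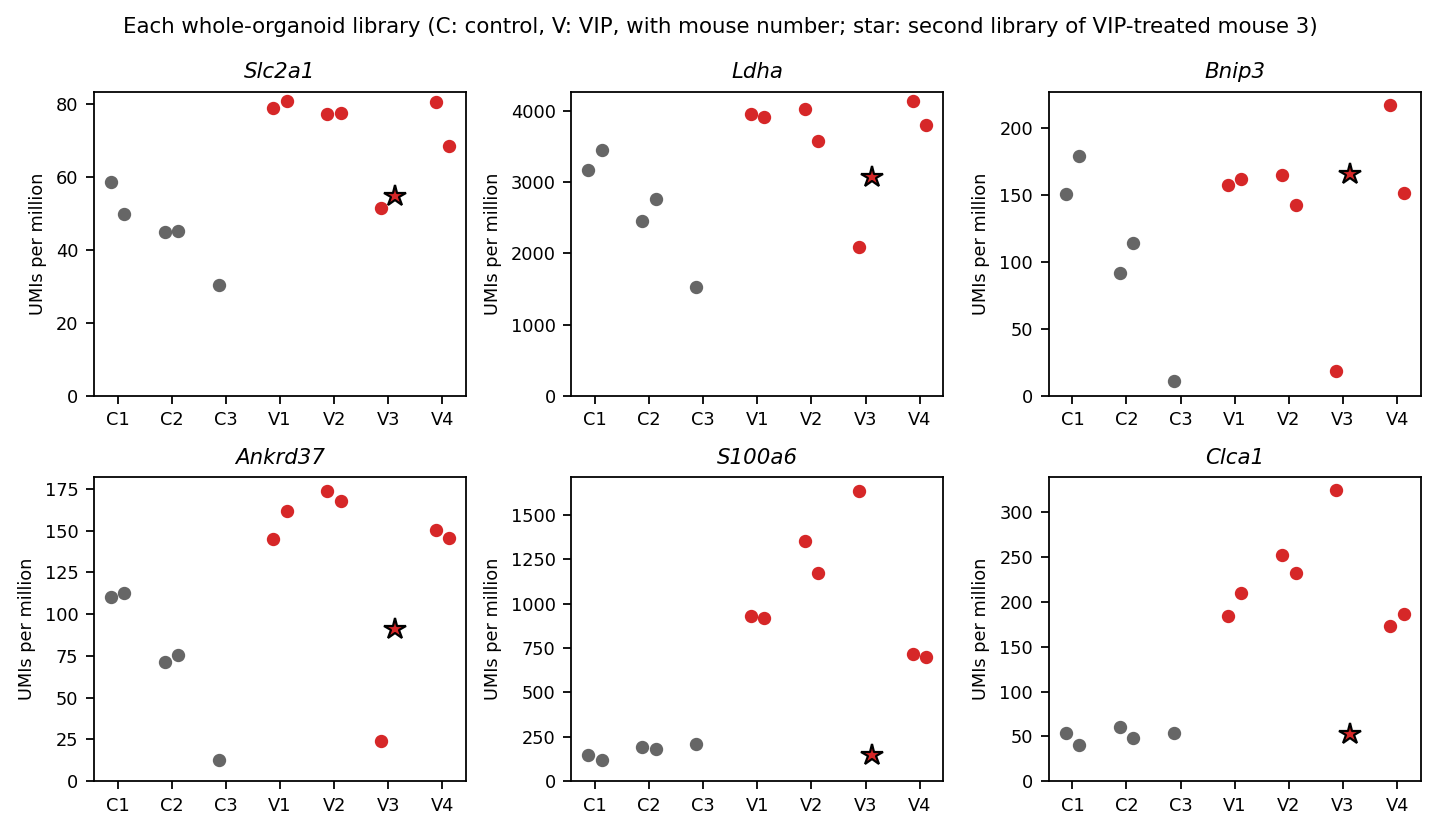
CPM (vertical axis, from 0) of 4 genes of the set and of S100a6 and Clca1 in each of the 13 whole-organoid libraries, control in grey and VIP in red, with a star for the library labelled as the second of VIP-treated mouse 3. In Bnip3 the star lies at 166 and the first library of the same culture at 18.3, and for S100a6 the star lies with the controls at 150.0.

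To show what the regulatory sequence of the set looks like, the 250 bases before the first RefSeq start of 5 members are printed 5′ to 3′ on the gene's strand (GRCm38.p6), with matches to ACGTG, matches to the variant GCGTG and reverse complements of either in capitals. Pgk1, Eno1 and Ldha were chosen because they passed the threshold in 3 comparisons below, Slc16a3 because its differences in sorted cells were large and Ankrd37 because it alone passed the test of a difference between whole organoids and sorted cells. In the GENCODE annotation of the same build (release M21) the stretches of Pgk1 and Eno1 lie just before these protein-coding genes, and that of Ldha lies in an intron, before a start inside the gene. Those of Slc16a3 and Ankrd37 also lie inside the annotated genes, in introns apart from their last bases, which fall in an exon.
Pgk1, chrX:106186850-106187099, plus strand: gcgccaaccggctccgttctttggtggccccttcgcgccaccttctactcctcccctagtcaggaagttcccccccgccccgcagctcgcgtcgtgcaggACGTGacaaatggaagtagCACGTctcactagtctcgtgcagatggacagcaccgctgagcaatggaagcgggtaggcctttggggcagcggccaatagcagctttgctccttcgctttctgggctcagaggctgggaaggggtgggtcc
Eno1, chr4:150236458-150236707, plus strand: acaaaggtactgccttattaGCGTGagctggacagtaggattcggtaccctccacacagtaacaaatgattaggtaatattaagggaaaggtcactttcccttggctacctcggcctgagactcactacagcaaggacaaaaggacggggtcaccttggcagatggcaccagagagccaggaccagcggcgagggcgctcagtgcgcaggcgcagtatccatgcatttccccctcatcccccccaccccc
Ldha, chr7:46845554-46845803, plus strand: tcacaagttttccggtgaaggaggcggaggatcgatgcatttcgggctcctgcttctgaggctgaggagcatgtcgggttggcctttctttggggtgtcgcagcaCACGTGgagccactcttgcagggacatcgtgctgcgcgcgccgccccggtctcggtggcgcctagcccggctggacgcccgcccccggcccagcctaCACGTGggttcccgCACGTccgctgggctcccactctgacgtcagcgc
Slc16a3, chr11:120948817-120949066, plus strand: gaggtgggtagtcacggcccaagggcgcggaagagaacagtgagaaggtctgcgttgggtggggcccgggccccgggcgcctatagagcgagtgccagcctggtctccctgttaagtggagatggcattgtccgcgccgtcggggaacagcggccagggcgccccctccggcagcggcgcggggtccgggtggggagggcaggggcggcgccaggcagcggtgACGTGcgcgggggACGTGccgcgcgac
Ankrd37, chr8:45999851-46000100, minus strand: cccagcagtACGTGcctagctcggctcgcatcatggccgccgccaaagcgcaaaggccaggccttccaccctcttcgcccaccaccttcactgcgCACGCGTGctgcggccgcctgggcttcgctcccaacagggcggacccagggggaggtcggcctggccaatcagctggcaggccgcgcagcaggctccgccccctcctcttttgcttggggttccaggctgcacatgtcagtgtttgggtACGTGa
These stretches hold 2 such cores in Pgk1, 1 in Eno1, 5 in Ldha, 2 in Slc16a3 and 4 in Ankrd37, where the palindrome CACGTG counts once for each strand. In windows from 250 bases before to 50 bases after each RefSeq start, ACGTG occurred on either strand in 23 of the 33 listed genes with a window (69.7%) and in 21.8% of all 27025 genes with one. GCGTG occurred in 24 of 33 (72.7%) against 35.2%, and at least 1 of both in 30 of 33 (90.9%) against 46.7%. A gene counted here if any of its windows matched, and the listed genes had more windows per gene. Counted by window, ACGTG occurred in 50.0% of their 50 windows and 19.6% of all 32851. For GCGTG these shares were 64.0% and 32.4%, and for either 80.0% and 43.8%. The cyclic AMP response element TGACGTCA shares the letters ACGT with ACGTG but holds no full match to either core. It was found in 2 of the 33 listed genes (6.06%), Ldha and Mif, against 2.03% of all genes with a window. The genes compared were not matched to the listed ones in base composition or expression. A match of so few letters is a description and not a binding site.

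The mice differed from each other in these genes before any treatment. In control whole organoids the level of the 34 genes with UMIs in every control differed between the highest and the lowest of 3 mice by a median of 2.99 times, and mouse 3 was lowest for 33 of them. Bnip3 was at 165, 104 and 11.3 CPM in mice 1, 2 and 3. Slc16a3, the lactate exporter MCT4, was at 193, 127 and 16.7. In untreated sorted cells of the 72 h experiment the median ratio was 3.59 over 28 genes, with mouse 1 or mouse 3 lowest for all 28. Slc16a3 was there at 5.06, 103, 24.7 and 200.3 CPM in mice 1 to 4, a ratio of 39.6, and Egln3, a HIF prolyl hydroxylase that HIF itself induces, at 1.69, 33.5, 4.93 and 33.4. In the irradiation experiment the untreated, non-irradiated cultures were closer, with a median ratio of 1.75 over 32 genes, and Ldha, which turns pyruvate into lactate, spanned 1482 to 1746. The comparisons below are therefore within mice.

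**Figure D2:**
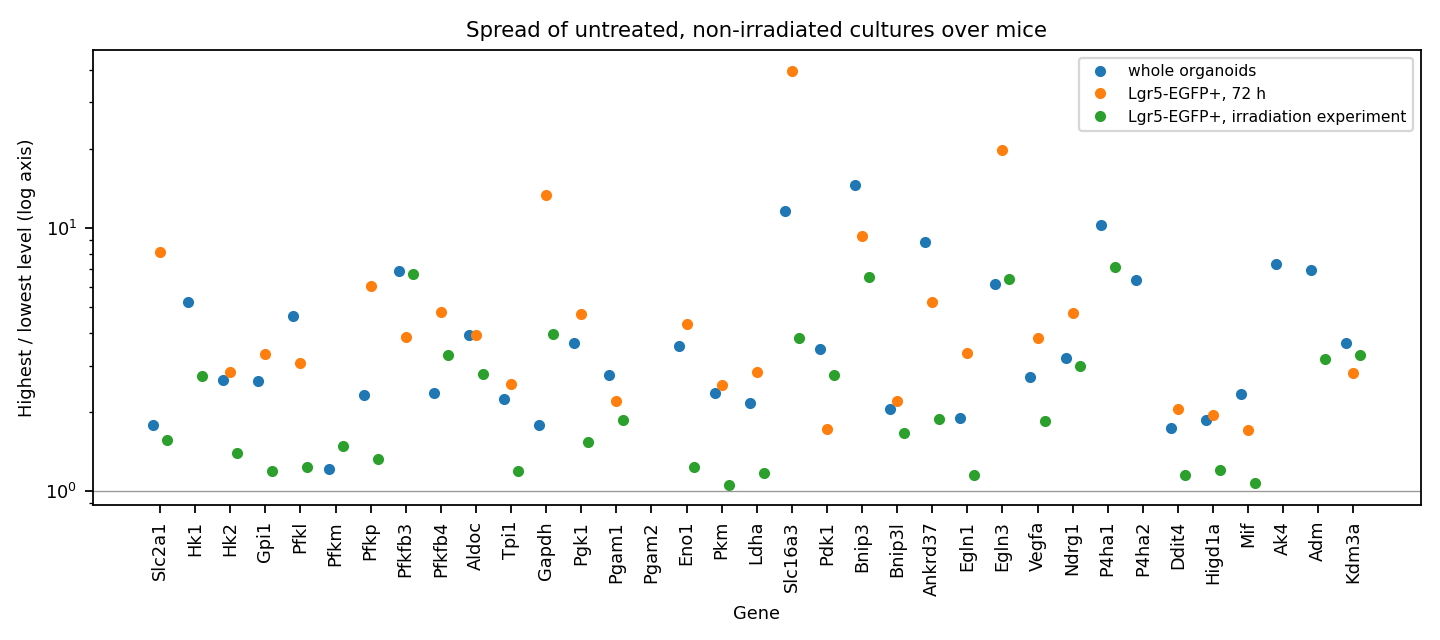
Ratio of the highest to the lowest level among untreated, non-irradiated cultures (vertical log axis) for each gene (horizontal axis) in whole organoids (3 mice), sorted cells of the 72 h experiment (4 mice) and of the irradiation experiment (4 mice), for genes with UMIs in every such culture. Slc16a3 reaches 39.6 in the 72 h experiment and 3.83 in the irradiation experiment.

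In whole organoids VIP was accompanied by higher levels of the glucose transporter Slc2a1, the hexokinase Hk1, several later enzymes of glycolysis and 2 hypoxia-response genes, Ankrd37 and Egln3. Of the 35 genes tested, 10 were called higher with VIP and 0 lower at an adjusted p of 0.05 (edgeR quasi-likelihood test with the mouse as a block), where 3.72% of all 12727 genes tested were called higher. One of the 10, Pgam2, had 1 UMI in all controls together and passed the filter on low counts through the VIP-treated cultures alone, so its call had to point upward and 9 calls are left without it. The median log2 change was 0.49 over the 35 genes and -0.00 over all genes, and 33 of the 35 had a positive value. The VIP-treated culture of mouse 4 has no control, so the mouse block leaves 3 mice that inform these changes. Without the second library of mouse 3 the set gave 11 higher genes of 34, 8 of them the same, against 6.46% of all genes, and its median change was 0.28. Without the first library of mouse 3 in place of the second, 0 of the 34 genes and 0 genes in all were called by edgeR (720 of all genes had an unadjusted p under 0.05). Leaving out a whole mouse gave 18 called genes without mouse 1, 15 without mouse 3 and 10 without mouse 4. Without mouse 2 there were 10 as well, 9 of them higher and Ddit4 lower, at -0.49 (adjusted p = 0.0305).

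The uptake and first phosphorylation of glucose gave the clearest values. Slc2a1, the glucose transporter GLUT1, was at 54.2, 45.1 and 30.4 CPM in the controls and at 79.9, 77.4, 52.8 and 75.0 with VIP (the last from mouse 4). VIP-treated cultures of mice 1, 2 and 4 lay above every control, and mouse 3 lay between the controls of mice 1 and 2 but above its own. Slc2a1 rose by 0.70 ± 0.10 on the log2 scale (SE, adjusted p = 0.00136, higher in 3 of 3 mice), and by 0.69 ± 0.09 without the second library (adjusted p = 0.000451). Hk1, a hexokinase, was at 12.3, 14.1 and 2.69 in the controls and at 22.2, 33.9, 12.5 and 25.2 with VIP, a rise of 1.25 ± 0.20 (adjusted p = 0.00189) that was 1.24 ± 0.19 without that library. Hk2, the inducible hexokinase, had a log2 change of 0.49 ± 0.14 with an adjusted p of 0.0676, which passed at 0.0482 without that library.

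Among the enzymes after hexokinase Ldha, Pkm, Pgk1, Eno1 and Aldoc rose. Ldha was at 3313, 2620 and 1523 in the controls and 3942, 3781, 2471 and 3991 with VIP, and rose by 0.49 ± 0.09 (adjusted p = 0.00613). Pkm, pyruvate kinase, was at 1207, 986 and 509 and at 1358, 1371, 959.7 and 1475, and rose by 0.51 ± 0.11 (adjusted p = 0.0153). In both genes the VIP-treated culture of each mouse exceeded its own control, and the groups overlapped because mouse 3 was low with and without VIP. Pgk1, phosphoglycerate kinase, rose by 0.57 ± 0.13 (adjusted p = 0.0260) and Eno1, enolase, by 0.56 ± 0.14 (adjusted p = 0.0352). Without the second library Ldha (0.42 ± 0.07), Pkm (0.46 ± 0.09), Pgk1 (0.40 ± 0.09) and Eno1 (0.42 ± 0.10) still passed. Aldoc, a minor aldolase, rose by 0.51 ± 0.13 (adjusted p = 0.0448) but had an adjusted p of 0.207 without that library. Pgam2, the muscle form of phosphoglycerate mutase, had 0, 0 and 1 UMI in the controls and 10, 21 and 13 UMIs with VIP in the same mice, a ratio of 34.7 with a counting interval of 5.91 to 1400 (95%, exact). The second library held 0 of these UMIs, but without it Pgam2 no longer passed the filter on low counts and was not tested. Gpi1, Pfkl, Pfkp, Tpi1 and Pgam1 had changes of 0.23 to 0.67 with all libraries and 0.03 to 0.68 without that one, and did not pass in either.

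Among the hypoxia-response genes 2 were called higher with all libraries, Ankrd37 and Egln3. DESeq2 called Egln3 but not Ankrd37, and of the glycolytic calls it lost Pgk1 and Aldoc. Without the second library of mouse 3, Adm and Higd1a passed as well, at 0.97 ± 0.28 and 0.33 ± 0.09 (adjusted p = 0.0492 and 0.0455). Ankrd37, an ankyrin repeat protein known as a HIF target, was at 111, 73.5 and 12.6 in the controls and at 153, 171, 49.9 and 148 with VIP, and Egln3 was at 102, 61.8 and 16.7 and at 137, 172, 47.2 and 147. Ankrd37 rose by 1.07 ± 0.18 (adjusted p = 0.00289) and by 0.85 ± 0.13 without the second library (adjusted p = 0.00164). Egln3 rose by 1.07 ± 0.17 (adjusted p = 0.00229) and by 0.83 ± 0.19 (adjusted p = 0.0149). In the first library of mouse 3 alone these genes were at 23.9 and 18.8, against 12.6 and 16.7 in its control. Bnip3 had 0.78 ± 0.29 and Slc16a3 0.80 ± 0.24 (adjusted p = 0.185 and 0.0865), values that came to 0.31 ± 0.12 and 0.40 ± 0.11 without that library and so moved by over 1.5 times. Vegfa, the angiogenic factor, and Ddit4, an inhibitor of mTORC1, had 0.17 ± 0.11 and -0.21 ± 0.15, and 0.02 ± 0.09 and -0.20 ± 0.14 without it. Goblet cell markers moved in the same samples, with 6 of 7 called higher and a summed level of 5458 to 6776 in the controls and 7792 to 9316 with VIP, and 4 of 6 dissociation and handling genes were called higher, at 128 to 171 in sum and 133 to 171. Without the second library of mouse 3, 7 of 7 goblet markers were called higher, at 7792 to 10270 with VIP, and 4 of 6 handling genes, at 133 to 207. Their part in the result was not tested.

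In sorted Lgr5-EGFP+ cells after 72 h of VIP, none of the 24 genes tested was called by edgeR, where 0.0885% of all 6778 genes were called in either direction. At an unadjusted p under 0.05 there were 3, all lower, and DESeq2 called 0 as well. The median change was -0.04 for the set and -0.00 for all genes, and the former was 0.03 without mouse 2 and 0.12 without mouse 4. Bnip3 was at 15.2, 116, 23.0 and 141 CPM in the controls of mice 1 to 4 and at 9.06, 74.8, 25.5 and 88.7 with VIP, with a fitted change of -0.58 (95% interval -1.02 to -0.13, adjusted p = 0.869). Ankrd37 was at 11.8, 59.0, 39.5 and 62.0 and at 8.15, 38.2, 28.9 and 47.5, lower in 4 of 4 mice with -0.53 (-1.05 to -0.02). Ndrg1, a stress-induced gene known to follow hypoxia, had -0.55 ± 0.22 but was lower in 2 of 4 mice and higher in the other 2, and came to -0.22 without mouse 2. Mice 2 and 4 were higher than mice 1 and 3 in Bnip3 and Ankrd37 with and without VIP, so the VIP-treated and control groups overlapped. Among the glycolytic genes Ldha had a change of 0.08 (-0.20 to 0.36), Eno1 of 0.22 (-0.06 to 0.51) and Slc2a1 of 0.02 (-0.51 to 0.56). The interval for Ldha lies below its fitted change of 0.49 in whole organoids, but this difference did not pass its own test (adjusted p = 0.754).

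The difference between the VIP effect in sorted cells and in whole organoids was tested in 1 model over both tables, in which 0.147% of 10194 genes were called. Of 34 genes of the set 14 had an unadjusted p under 0.05, all with a lower VIP effect in sorted cells. Over all genes 6.24% had such a p in either direction. Only 24 of the 34 passed the filter on low counts in the sorted cells alone. The others held few UMIs there, such as Hk1 with 34 over all cultures, so their differences are imprecise. At the threshold 1 of the 34 passed. This was Ankrd37, with a difference of -1.63 ± 0.33 (adjusted p = 0.0474), and -1.40 ± 0.28 without the second library of mouse 3 (adjusted p = 0.0250). It no longer passed without whole-organoid mouse 2 or without any single mouse of the sorted cells, and without whole-organoid mouse 1 Bnip3 passed as well. Mice, experiment and sequencing differ between both tables along with the compartment and cannot be told apart from it.

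**Figure D3:**
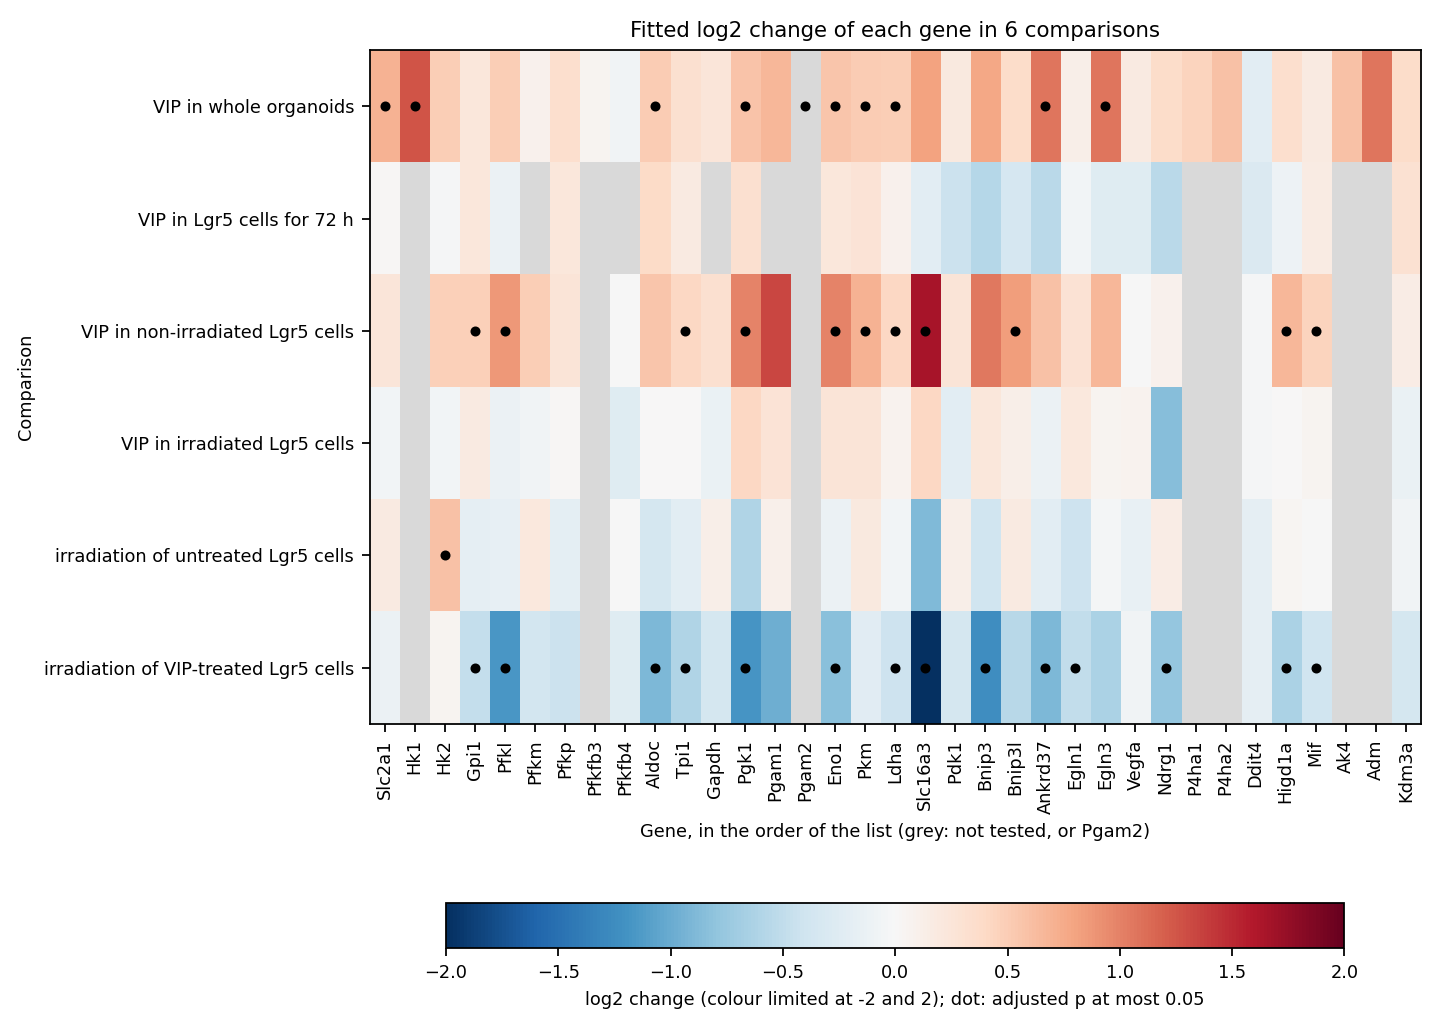
Fitted log2 change (colour, red higher and blue lower) of the 35 genes (horizontal axis) in 6 comparisons (vertical axis), with a dot where the adjusted p is at most 0.05 and grey where a gene was not tested. Dots fall on 10 genes for VIP in whole organoids (Pgam2 included), 11 for VIP in non-irradiated sorted cells, 1 for irradiation alone and 14 for irradiation of VIP-treated cells. The colour of Pgam2 is left out because its controls held 1 UMI in all.

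In the irradiation experiment VIP without irradiation was accompanied by higher glycolytic enzymes. Of 28 genes tested, 11 rose and 0 fell, where 0.481% of all 9976 genes were called higher. The median change of the set was 0.48 against -0.00 over all genes, and 25 of 28 values were positive. The summed level of the 35 genes was 4788, 4559, 4273 and 4179 CPM in the controls of mice 1 to 4 and 8392, 6516, 5397 and 5073 with VIP, so that the groups did not overlap and mouse 1 had the largest difference. The largest fitted change among the calls was that of Slc16a3, at 20.1, 10.5, 7.78 and 5.24 in the controls and at 57.1, 47.8, 22.4 and 11.6 with VIP, 1.65 ± 0.23 (adjusted p = 0.000234, higher in 4 of 4 mice). Its groups overlapped between mice but not within any mouse.

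Among the first steps of glycolysis Pfkl, Gpi1 and Tpi1 rose, and glucose uptake and hexokinase did not pass. Pfkl, the liver type of phosphofructokinase and the committed step, was at 114, 99.3, 102 and 92.4 in the controls and at 267, 198, 148 and 149 with VIP, without overlap, a rise of 0.87 ± 0.13 (adjusted p = 0.000802). Gpi1, glucose phosphate isomerase, rose by 0.48 ± 0.10 (adjusted p = 0.0154), with a difference of 0.01 in mouse 4 alone. Tpi1, triose phosphate isomerase, was at 692, 655, 610.5 and 576 and at 1112, 847, 737 and 724, and rose by 0.41 ± 0.07 (adjusted p = 0.00478). Slc2a1 had 0.25 ± 0.20 and Hk2 0.48 ± 0.15 (adjusted p = 0.686 and 0.117).

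In the steps that yield ATP and lactate, Eno1 was at 139, 134, 115 and 112 in the controls and at 394, 245, 199 and 181 with VIP, without overlap, and rose by 0.99 ± 0.13 (adjusted p = 0.000231). Pkm was at 486, 502, 481 and 473 and at 1022, 821, 677 and 646, and rose by 0.69 ± 0.10 (adjusted p = 0.000721). Ldha was at 1746, 1694, 1580 and 1482 and at 2843, 2359, 1862 and 1772. Every VIP-treated culture was above every control for Ldha, and the gene rose by 0.42 ± 0.08 (adjusted p = 0.00752). Pgk1 rose 2-fold (SE 0.24 on the log2 scale, adjusted p = 0.0402), from 20.7, 25.3, 18.3 and 28.2 to 70.6, 50.7, 32.6 and 34.7.

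Of the hypoxia-response genes, Bnip3l, a mitophagy receptor related to Bnip3, rose by 0.84 ± 0.20 (adjusted p = 0.0449), Higd1a, a mitochondrial protein induced by hypoxia, by 0.67 ± 0.14 (adjusted p = 0.0172) and Mif, a cytokine with a HIF-responsive promoter, by 0.44 ± 0.10 (adjusted p = 0.0320). Bnip3 was at 21.4, 12.3, 13.9 and 3.28 in the controls and at 66.1, 24.6, 16.6 and 7.31 with VIP, higher in 4 of 4 mice, with 1.06 ± 0.31 and an adjusted p of 0.0972. Vegfa, Ndrg1 and Ddit4 had changes of -0.01, 0.08 and -0.03. Pfkl, Tpi1, Eno1, Pkm and Slc16a3 passed whichever mouse was left out, the other 6 calls did not. DESeq2 did not call Bnip3l, Higd1a, Pgk1 and Slc16a3, and Slc16a3 was also lost without the mouse block. Of the 11 calls, 3 (Pfkl, Eno1 and Pkm) passed in every alternative. Without mouse 1, 5 of the 11 were called, without mouse 2 and without mouse 3 there were 6 each, and without mouse 4 there were 10. In the same cultures the 6 stem cell markers, of which 1 was called higher, were at 3258 to 4310 in sum in the controls and 5094 to 5617 with VIP, and Paneth markers were at 9889 to 14679 and 8393 to 9746, with 0 of 6 called. Among the stem cell markers Olfm4 had medians of 2941 and 4335 CPM, and Lgr5 of 20.5 and 28.8. Whether these differences in marker levels take part in the result was not tested.

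**Figure D4:**
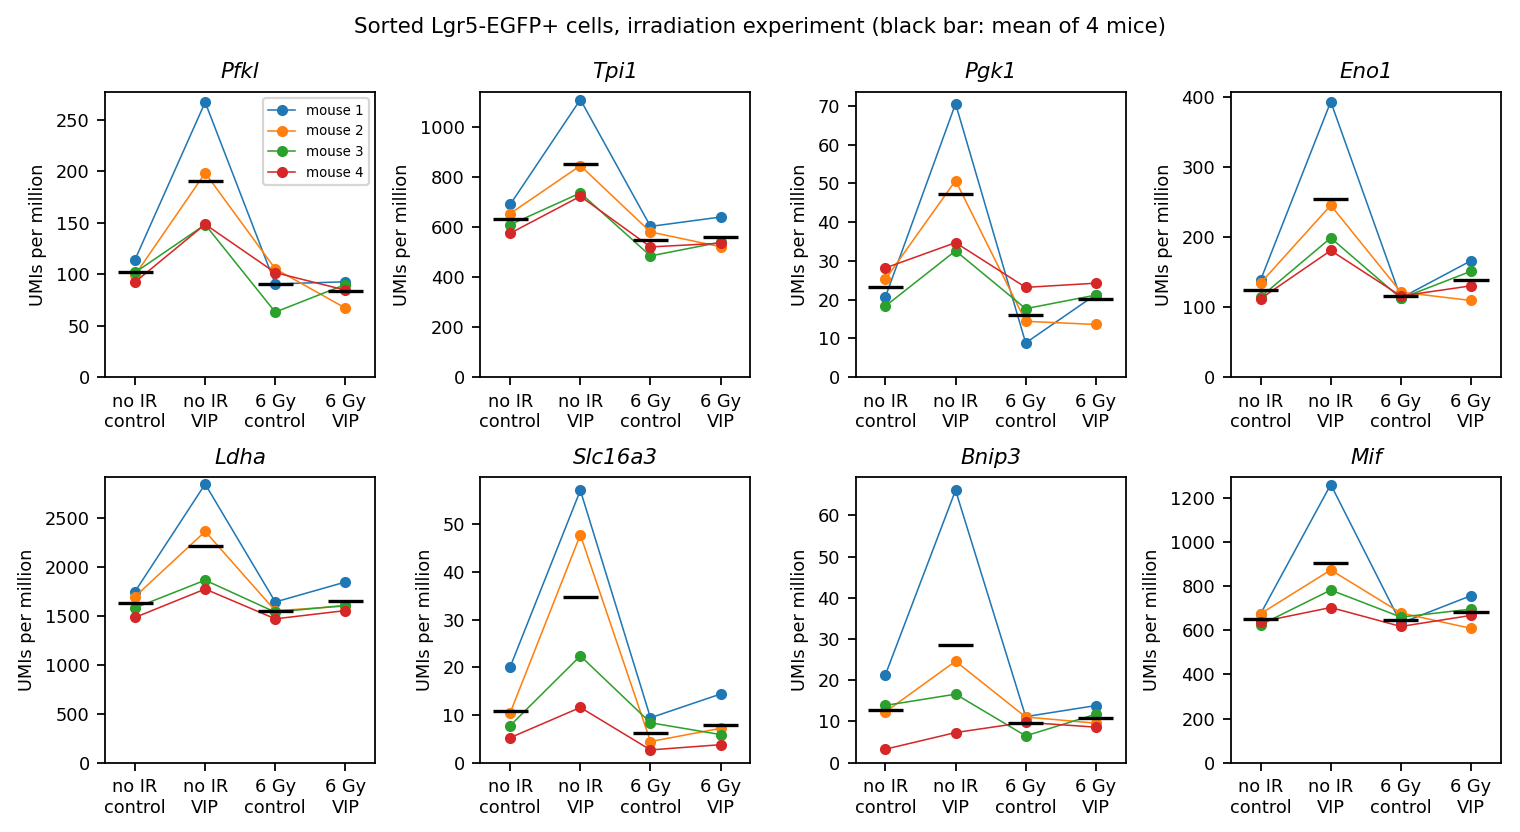
CPM (vertical axes, from 0) of 8 genes in sorted Lgr5-EGFP+ cells without irradiation and after 6 Gy, each with and without VIP, with a line per mouse and a black bar for the mean of 4 mice. For Eno1 the non-irradiated VIP-treated cultures lie at 181 to 394 and the other 3 groups at 109 to 166.

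After 6 Gy VIP, given for 48 h, gave 0 called genes in the set, while its duration in the non-irradiated cultures is not known. VIP-treated irradiated cells were compared with irradiated controls, 0 of 28 genes passed in edgeR (2 at an unadjusted p under 0.05) and in DESeq2, and 0.221% of all genes were called in either direction. The median change was 0.02. Eno1 was at 113, 121, 112 and 116 in the irradiated controls and at 166, 109, 151 and 130.4 with VIP, a change of 0.26 (95% interval -0.04 to 0.56). Pfkl was at 90.6, 105, 63.2 and 102 and at 92.7, 67.1, 90.0 and 84.6, with -0.12 (-0.43 to 0.19), and Slc16a3 at 9.41, 4.43, 8.37 and 2.67 and at 14.4, 7.19, 5.88 and 3.77, with 0.41 (-0.26 to 1.09). For these genes the VIP-treated and control groups overlapped. Ndrg1 was lower with VIP in 4 of 4 mice, from 25.9, 24.9, 28.8 and 33.9 to 18.6, 16.0, 14.7 and 13.5, without overlap, and its change of -0.85 ± 0.24 had an adjusted p of 0.283.

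Whether the VIP effect differed after irradiation was tested as an interaction, in which any difference in the duration of VIP cannot be told apart from that of irradiation. It called 0 of 9976 genes in edgeR, 0.00%, with 634 at an unadjusted p under 0.05, and DESeq2 called 0. In the set 13 of 28 genes had an unadjusted p under 0.05, all with a lower VIP effect after irradiation, and the median interaction was -0.50. The smallest p was that of Pfkl, at -0.99 (95% interval -1.40 to -0.57, adjusted p = 0.511), followed by Tpi1 at -0.40 (-0.62 to -0.18, adjusted p = 0.633) and Eno1 at -0.72 (-1.13 to -0.32, adjusted p = 0.633). The set's calls without irradiation and their absence after it are thus not shown to differ at the threshold. With all genes that had any count in the fit, Eno1 and Pfkl passed.

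In untreated cells irradiation gave 1 called gene of 28, where 4.46% of all genes were called in either direction, so the set did not stand out from them. Its median change was -0.07. Hk2 was at 49.6, 47.5, 37.8 and 35.4 CPM without irradiation and at 62.9, 64.8, 76.2 and 51.7 after 6 Gy, without overlap, and rose by 0.59 ± 0.14 (adjusted p = 0.0149), a call that was lost without mouse 3. Slc16a3 had -0.88 ± 0.31 and Egln1, the main oxygen-sensing prolyl hydroxylase, -0.41 ± 0.15 (adjusted p = 0.118 and 0.140). Ldha was at 1468 to 1640 after irradiation, with -0.06 (95% interval -0.23 to 0.11). Cell type markers moved in this contrast, with 6 of 6 Paneth, 5 of 7 goblet and 3 of 6 enteroendocrine markers called higher. The summed stem cell markers went from 3258 to 4310 down to 2337 to 2648, with 2 of 6 called lower. Olfm4, the bulk of this sum, had medians of 2941 and 1920 CPM, while Lgr5 had 20.5 and 20.2.

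In VIP-treated cells irradiation was accompanied by lower levels of 14 of the 28 genes and higher levels of 0, where 3.46% of all genes were called lower. The median change was -0.48 and 27 of 28 values were negative. This comparison shares its non-irradiated VIP-treated cultures with the comparison of VIP without irradiation, so both rest on the same high values and are not independent of each other. Slc16a3 fell by 2.11 ± 0.24 on the log2 scale (adjusted p = 1.44e-06), from 57.1, 47.8, 22.4 and 11.6 to 14.4, 7.19, 5.88 and 3.77. Pfkl fell by 1.16 ± 0.14 (adjusted p = 2.47e-06) and Tpi1 by 0.60 ± 0.07 (adjusted p = 4.94e-06), and neither overlapped between groups. Pgk1 fell by 1.19 ± 0.24, Eno1 by 0.83 ± 0.13 and Ldha by 0.41 ± 0.08 (adjusted p = 0.00211, 0.000165 and 0.00138). Gpi1, Aldoc, Bnip3, Ankrd37, Egln1, Ndrg1, Higd1a and Mif also fell, by 0.40 (Mif) to 1.24 (Bnip3), and Bnip3 was lower in 3 of 4 mice. Pkm was at 1022, 821, 677 and 646 before and 693, 557, 772 and 675 after irradiation, with -0.23 ± 0.10 (adjusted p = 0.187). Gpi1, Pfkl, Tpi1, Pgk1, Eno1, Ldha, Slc16a3 and Higd1a passed whichever mouse was left out, and 9 of the 14 calls were left without mouse 1 and 9 without mouse 2. In the same contrast 6 of 6 Paneth markers and 6 of 6 enteroendocrine markers were called higher, and the summed stem cell markers went from 5094 to 5617 down to 2946 to 3556. Among the latter Olfm4 had medians of 4335 and 2391 CPM, and Lgr5 of 28.8 and 23.8. The part of all these markers in the fall was not tested.

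**Figure D5:**
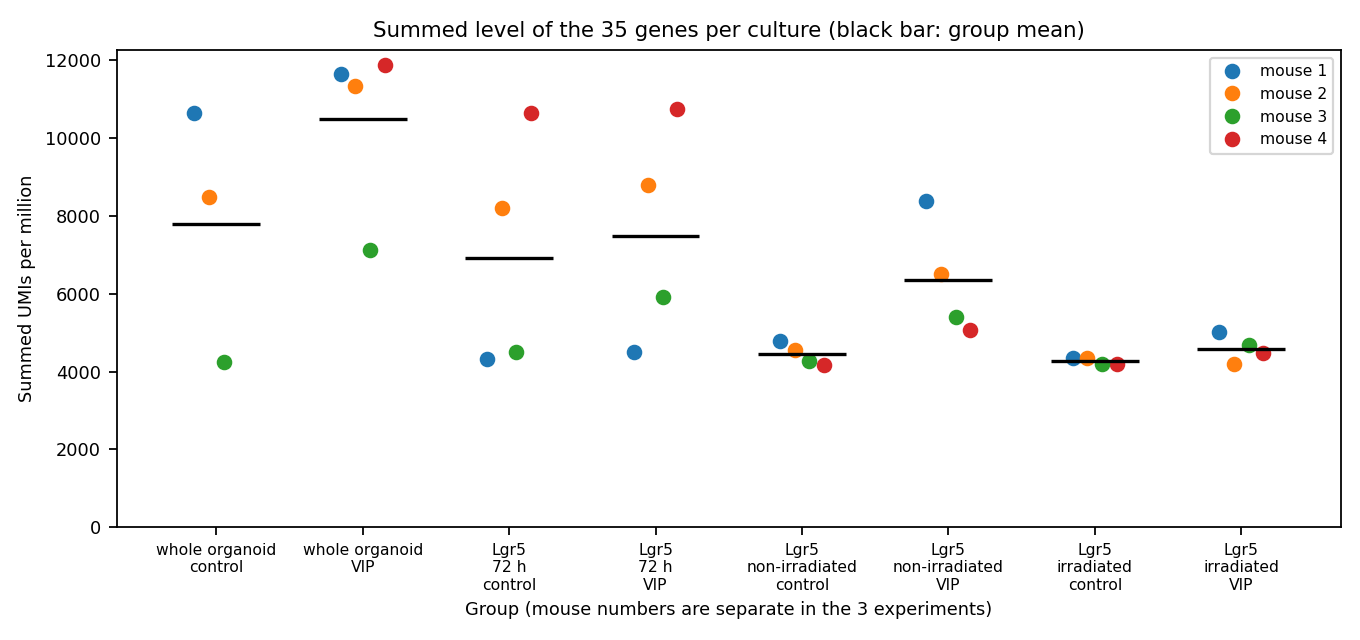
Summed CPM of the 35 genes (vertical axis, from 0) in every culture of the 8 groups (horizontal axis), coloured by mouse number, with a black bar for the group mean. The non-irradiated VIP-treated sorted cells lie at 5073 to 8392 and the irradiated ones at 4194 to 5025, and in the 72 h experiment the mice spread from 4318 to 10747.

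Other genes of sugar metabolism and of the hypoxia response were followed through lists of their own. In whole organoids 5 of the 29 tested among other hypoxia-response genes rose with VIP, namely Car9 (0.40 ± 0.10), a carbonic anhydrase, Fam162a (0.59 ± 0.11), Ero1l (0.65 ± 0.13), Angptl4 (0.53 ± 0.13) and Mxi1 (0.48 ± 0.11), and these 5 passed without the second library of mouse 3 too, at 0.31 to 0.58. Of 18 other sugar uptake and glycolytic isozyme genes Gpd2 rose by 0.38 ± 0.09, while Khk, the kinase that starts fructose breakdown, fell by 0.69 ± 0.11. Without that library they had 0.47 ± 0.09 and -0.97 ± 0.08, and the list gave 4 higher and 4 lower genes, against 1 and 2 with all libraries. Over all genes, 474 of 12727 were called higher and 140 lower with all libraries. Without that library these were 820 and 441 of 12684. In gluconeogenesis Pcx rose by 1.17 ± 0.25 and Pck2 fell by 0.75 ± 0.17, out of 6 genes, and without that library they had 1.19 ± 0.23 and -0.97 ± 0.12, with Fbp1 and G6pc also lower at -1.08 ± 0.09 and -0.68 ± 0.15. None of 8 pentose phosphate, 29 pyruvate and citric acid cycle or 16 HIF regulator genes was called by edgeR there (1, 5 and 1 had an unadjusted p under 0.05), and without that library 1 pentose phosphate gene, Pgls, was lower at -0.36 ± 0.07 and 0 of the others were called (8 and 3 at an unadjusted p under 0.05). In non-irradiated sorted cells 1 gene of these lists rose with VIP, Mpc1, a subunit of the mitochondrial pyruvate carrier, by 0.46 ± 0.11 (adjusted p = 0.0320, 1 of 29 pyruvate and citric acid cycle genes). In that comparison 0.481% of all genes were called higher. Of the 19 other hypoxia-response genes tested there 0 were called by edgeR, with 4 at an unadjusted p under 0.05.

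Irradiation called further neighbours with and without VIP. Of all 9976 genes, 286 were called higher and 159 lower in untreated cells, and 431 and 345 in VIP-treated cells. Among 19 other hypoxia-response genes 1 was called higher and 0 lower in untreated cells, and 2 higher and 2 lower in VIP-treated cells. Of 4 gluconeogenesis genes 3 and 2 were called lower and 0 higher. Of 29 pyruvate and citric acid cycle genes 2 and 5 were called lower and 0 higher. Plod2, a collagen lysyl hydroxylase counted among hypoxia-response genes, rose by 2.14 ± 0.41 in untreated and 2.22 ± 0.44 in VIP-treated cells, and Fbp1 and Pck2 of gluconeogenesis fell by 0.64 ± 0.15 and 0.63 ± 0.12 in untreated and by 0.57 ± 0.15 and 0.47 ± 0.12 in VIP-treated cells. Pdk2, a kinase that holds back pyruvate dehydrogenase, fell by 0.78 ± 0.12 and 0.63 ± 0.12. Mpc1 fell by 0.46 ± 0.10 in VIP-treated cells, where Sdha and Sdhd, subunits of succinate dehydrogenase in the citric acid cycle, fell as well, by 0.23 ± 0.07 and 0.26 ± 0.08. No gene of the 14 tested HIF regulators was called by edgeR in either (1 and 0 with an unadjusted p under 0.05).

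Some members have 3′ ends that resemble those of other genes, and how reads from them were assigned was not tested, so their counts are uncertain. The last 500 bases of the longest coding transcript matched another annotated gene over at least 65 bases at 95% identity or more in 8 of 36 listed genes, among them Gapdh with 90 such genes, Pgk1 with 5, Mif with 5, Eno1 with 4, Gpi1 with 4 and Bnip3 with 2. Gapdh was at 1.64 to 30.1 CPM over all cultures, and its changes are not read as those of the enzyme.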

How the data were processed

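RNA was measured in whole jejunal organoids and in sorted Lgr5-EGFP+ cells. The deposited values are raw counts of unique molecular identifiers per gene, which the authors made with a Drop-seq pipeline on GRCm38 from libraries of 3′ ends. The members and all gene lists were chosen with earlier results of these data known. Technical libraries of a culture were summed, and levels are CPM. Genes were filtered with filterByExpr, scaled by TMM and tested with edgeR 4.0.16 quasi-likelihood fits in R 4.3.3, with p-values adjusted by Benjamini and Hochberg over all genes tested and a threshold of 0.05. All 4 groups of the irradiation experiment entered 1 fit. The mouse was a block, as in the study's methods and from the mouse identifiers in the labels, and the deviations of cultures from the same mouse correlated at 0.27 to 0.63 in whole organoids, 0.03 to 0.21 in sorted cells after 72 h and -0.03 to 0.16 in the irradiation experiment. Those of different mice correlated at -0.54 to 0.33, -0.14 to 0.15 and -0.10 to 0.05, so the ranges overlapped. SEs are the absolute log2 fold change divided by the square root of F. DESeq2 1.42.0, other scalings and filters, a fit without the block, each mouse left out and, after seeing the data, each library of VIP-treated mouse 3 left out were alternatives. The scripts were tested on simulated data. Named genes are the members past the threshold, with the others by role. With 575242 to 6330404 UMIs a culture, genes of few UMIs are imprecise, and intervals of counts cover counting error only. Aldoa was not analysed here. Some genes of the other lists are not reported here.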

Additional observations from a re-analysis of the deposited data

Results flagged for a closer look

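Of 157 groups of 4 cultures examined, 7 had a culture far from the others, where chance gives about 1 in 20. In VIP-treated whole organoids mouse 3 was low for Ldha, at 2471 CPM against 3781 to 3991 in the other mice. Its summed level of the set was 7139 against 11336 to 11878.5, and that of the glycolytic enzymes 5661 against 8649 to 9173. The control of mouse 3 was also the lowest of its group, and 1 of both VIP-treated libraries of this mouse stood apart.

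In sorted cells, Slc2a1 was at 29.4 in the irradiated control of mouse 2 against 21.8 to 22.3 in the other mice. Tpi1 was at 641 in irradiated VIP-treated mouse 1 against 522 to 540.2. The summed hypoxia-response genes were at 369 in the non-irradiated control of mouse 1 against 289.7 to 302. Egln1 was at 87.9 in non-irradiated VIP-treated mouse 1 against 65.2 to 68.8.

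A difference of VIP effects between sorted cells and whole organoids passed its test for Ankrd37, at -1.63 on the log2 scale.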

How the results depend on the processing

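No called value changed sign, but 58 of the 233 fitted changes of members, 0 of them past the threshold in either fit, did in at least 1 alternative, as did the median change of the set for VIP at 72 h (0.03 and 0.12 without mouse 2 and 4). Genes called for VIP in whole organoids numbered 614, 300 with DESeq2, 979 with any count, 99 without the mouse block (the pairing) and 363 to 1668 with a mouse left out. With the second or first library of VIP-treated mouse 3 left out, alternatives chosen after seeing the data, they were 1261 and 0. Members called there numbered 10, 7 with DESeq2, 6 with library-size scaling, 21 with any count, 1 without the block, 10 to 18 with a mouse left out and 0 without the first library. For VIP in sorted cells after 72 h, 6 genes became 2 with DESeq2, 14 with library-size scaling, 17 with any count, 11 with a minimum of 10, 1 without the block and 3 to 17 with a mouse left out. For VIP without irradiation, 74 genes became 182 with any count, 34 without the block, 184 when 2 groups alone were fitted and 32 to 42 with a mouse left out, and 11 members became 7 with DESeq2, 5 without the block and 5 to 10. For VIP after irradiation, 22 genes became 12 with DESeq2, 110 with any count, 12 without the block, 52 with 2 groups and 5 to 35, and Ndrg1 was the 1 member called with any count. For irradiation of untreated cells 445 genes became 281 with DESeq2 and 176 to 643 with a mouse left out, with 0 to 1 members. For irradiation of VIP-treated cells 776 became 489 with DESeq2 and 426 to 691, with 9 to 13 members. The interaction of VIP and irradiation gave 34 genes and 2 members with any count, and 0 to 1 genes with a mouse left out. The difference between compartments gave 15 genes, 9 with library-size scaling, 55 with any count, 7 with a minimum of 10, 0 without the block, 3 to 25 with a mouse left out, 28 with only the first technical library of each culture, 27 and 1 without the second and first library of mouse 3. Its 1 member became 0 with DESeq2 size factors in edgeR, library-size scaling, a minimum of 10, no block and without the first library, 4 with any count and 0 to 2 with a mouse left out. The median summed level in irradiated controls moved from 4269 to 4533 without mitochondrial UMIs in the total. The causes were not tested.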
